A study of Rattus norvegicus with 8 samples.

Results

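Regulators of G protein signalling (RGS) are proteins that end the signal of G protein-coupled receptors. A receptor that has bound its transmitter loads GTP onto the alpha subunit of a G protein, and the RGS domain speeds the hydrolysis of that GTP, so that the subunit returns to its resting state. In the brain RGS proteins set how strongly and how long receptors for noradrenaline, serotonin, dopamine, acetylcholine and glutamate act on phospholipase C, adenylyl cyclase and potassium channels. The genes described here are Rgs2, Rgs3, Rgs4, Rgs5, Rgs6, Rgs7, Rgs8, Rgs10, Rgs12 and Rgs17, chosen by symbol, whose 13 probes were found by the gene name in the scanner output among 30367 probes of the array. All 13 probes passed the filter on dim probes, so all 10 genes were measured.

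The animals were male Sprague Dawley rats, 3 months of age, and whole hippocampus was the labelled tissue. One group of 4 received vehicle for 7 days, and the other group of 4 received the combination labelled Y+I, which is yohimbine, an antagonist of alpha2-adrenoceptors, together with imipramine, a tricyclic inhibitor of noradrenaline and serotonin reuptake. RNA was taken 2 h after treatment, and each animal had its own 1-colour array. No array came from a group given a single drug. The comparison is between the combination and vehicle, and the parts of yohimbine and of imipramine cannot be told apart.

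Of the 10 genes, Rgs4 fell and the other 9 did not pass the test. Rgs4 was 3.95-fold lower under Y+I, whereas the fitted changes of the other 9 genes lay between -0.45 and 0.48 on the log2 scale. Across the array 300 of 18803 features fell, which is 1.6% of those tested, and 439 (2.33%) changed in either direction. Changes were tested with limma, and adjusted p-values are Benjamini-Hochberg values over all 18803 features, with a threshold of 0.05. Levels are given as normalised log2 signal, the log2 of the processed spot signal minus the 75th percentile of that array, so that 0 is the signal of the 75th percentile. Each probe has its own brightness, so levels were not ranked between genes, and a sum over a marker list weighs its bright probes most.

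The promoters of Rgs4 and of Rgs5 are shown because Rgs4 was the member that changed and Rgs5 is the gene beside it on chromosome 13. Each is the stretch of 250 bases before the annotated start, taken from RefSeq on assembly GRCr8 and written 5' to 3' on the strand of the gene. Rgs4 lies on the minus strand at chr13:84475885-84476134 and Rgs5 on the plus strand at chr13:84380827-84381076. Capitals mark matches to the motifs searched on both strands, which were TGACGTCA for the full cAMP response element, TGACG for its core, TATAAA for the TATA box and CCAAT for the box of that name.
Rgs4: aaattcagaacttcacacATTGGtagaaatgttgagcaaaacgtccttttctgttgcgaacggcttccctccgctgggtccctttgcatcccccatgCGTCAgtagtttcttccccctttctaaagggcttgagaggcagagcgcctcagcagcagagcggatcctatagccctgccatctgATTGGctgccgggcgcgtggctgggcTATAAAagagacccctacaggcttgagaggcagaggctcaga
Rgs5: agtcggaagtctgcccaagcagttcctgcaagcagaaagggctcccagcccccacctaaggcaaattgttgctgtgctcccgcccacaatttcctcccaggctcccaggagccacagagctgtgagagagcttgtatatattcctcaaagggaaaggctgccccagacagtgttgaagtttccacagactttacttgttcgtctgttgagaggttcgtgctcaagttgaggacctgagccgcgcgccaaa
The Rgs4 window held TATAAA with its first base 42 bases before the start. It held the response element core as CGTCA 153 bases before the start, and the CCAAT box as ATTGG at 232 and at 68 bases before it. The Rgs5 window held no match. Windows of all 10 members were searched among 33469 windows of the same length. TATAAA was present in those of Rgs3 and Rgs4 (12.9% of all windows), TGACG in those of Rgs2, Rgs3 and Rgs4 (18.2%) and CCAAT in those of Rgs2, Rgs4 and Rgs8 (34.0%). The full cAMP response element, which contains TGACG and was present in 1.59% of all windows, was in 0 of the 10 members' windows. These are matches of letters only.

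Some facts of the arrays touch every value below. Between 76.4% and 79.7% of the 58717 noncontrol spots were well above background on the vehicle arrays and between 64.4% and 74.8% on the Y+I arrays. The 75th percentile signal used for scaling was 1939 to 2106 on the vehicle arrays. It was 1883, 1408, 1971 and 1045 on the arrays of Y+I animals 1 to 4. The median SD between animals was 0.13 log2 units in the vehicle group and 0.24 in the Y+I group, and no spot was saturated. All 8 arrays were on 1 slide and in 1 scan, and each group filled its own slide row, so that row and treatment cannot be told apart. In whole tissue, fewer cells of a type and less RNA per cell cannot be told apart either.

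Rgs4, an RGS protein of neurons that acts on Gi and Gq alpha subunits, was measured by a probe at chr13:85534099-85534158 of build rn4, on the minus strand. The probe was printed 10 times on each array. In the vehicle animals the normalised log2 signal was 2.88, 1.99, 1.90 and 2.52, with a mean of 2.32 ± 0.46 (SD, n = 4). In the Y+I animals it was 0.40, 0.33, 0.05 and 0.59, with a mean of 0.34 ± 0.22 (SD, n = 4). The lowest vehicle animal stood well above the highest Y+I animal, and the groups did not overlap. Repeat spots of the probe on an array differed by an SD of 0.02 to 0.06 log2 units, which covers spot noise alone and not the differences between animals, RNA or labelling. The change was -1.98 ± 0.22 (SE) on the log2 scale, with a 95% interval of -2.49 to -1.47 and an adjusted p of 0.00616 in limma. Among 18803 features, 0.239% had a larger change in size, and Rgs4 was number 38 by size among the falls.

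**Figure D1:**
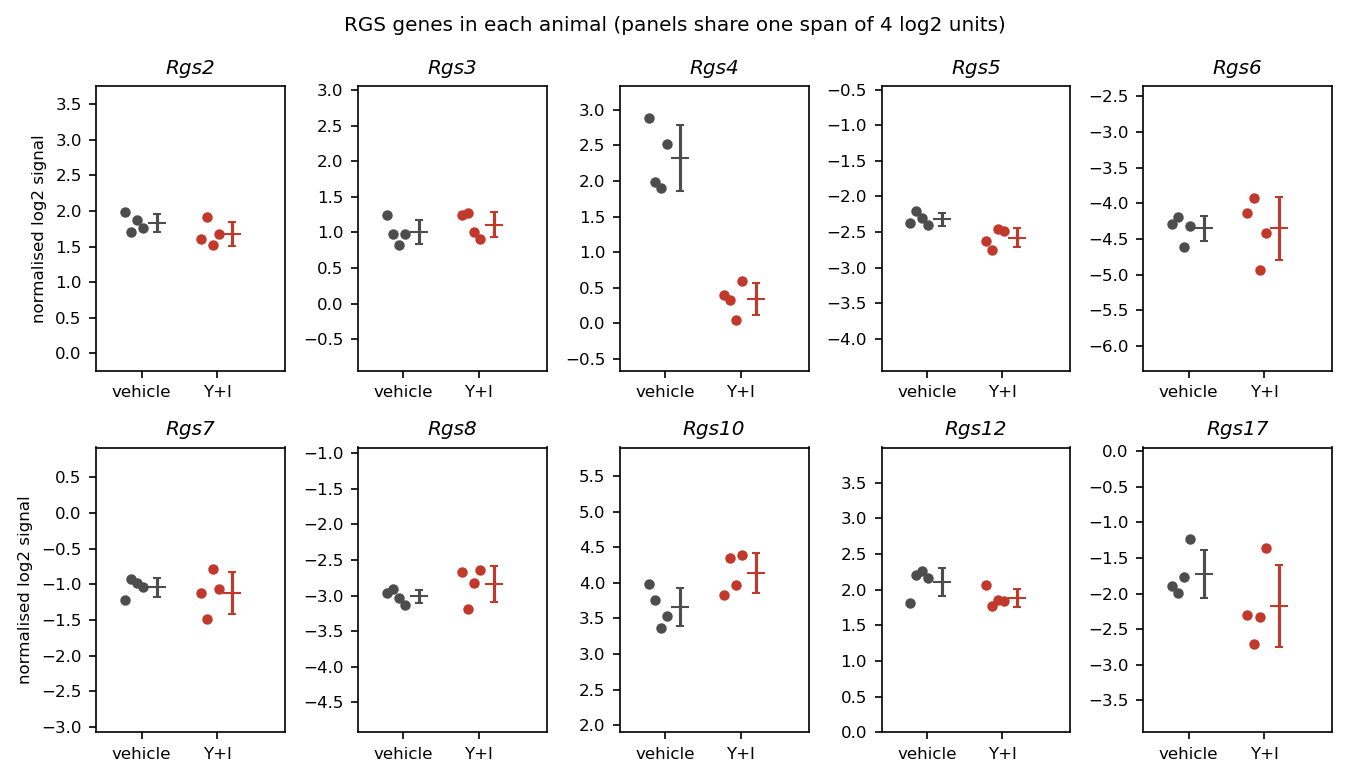
Normalised log2 signal of the 10 RGS genes in each of 4 vehicle animals (grey) and 4 Y+I animals (red), with the mean and SD beside the points; the panels share a span of 4 log2 units but have their own levels. Rgs4 is the panel in which the groups stand far apart, at 1.90 to 2.88 for vehicle and 0.05 to 0.59 for Y+I.

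The fall of Rgs4 passed the test under each of 21 other ways of processing the arrays, with log2 changes from -2.12 to -1.80 and adjusted p from 0.00101 to 0.0490 in limma. The highest adjusted p came when the Y+I animals 2 and 3, whose arrays had the fewest spots above background, were both left out; the change was then -1.83. Leaving out 1 animal at a time gave adjusted p from 0.0123 to 0.0369. The value table of the authors gave -1.96 for the same contrast.

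**Figure D2:**
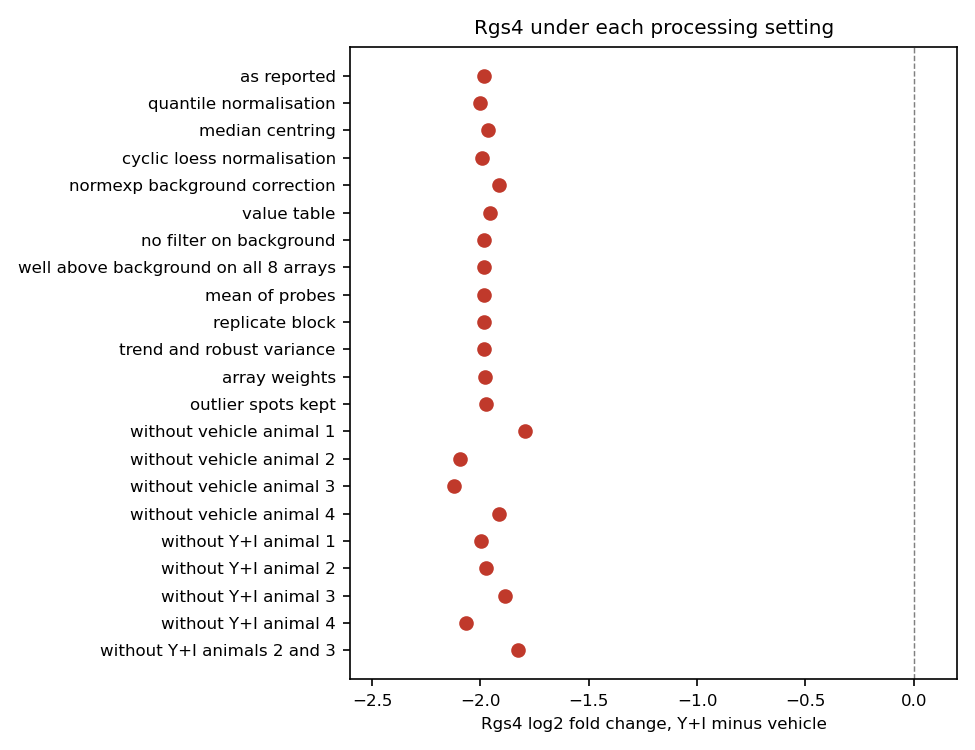
Log2 fold change of Rgs4, Y+I minus vehicle, as reported and under the 21 alternatives, one point for each. The points lie between -2.12 and -1.80, and the dashed line marks no change.

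Rgs5, an RGS protein best known from pericytes and arterial smooth muscle, lies beside Rgs4, and on rn4 the 2 probes are 51.9 kb apart. Its probe at chr13:85480542-85482176 spans 1635 bases of the genome. The normalised log2 signal was -2.38, -2.20, -2.30 and -2.40 in vehicle animals and -2.63, -2.75, -2.46 and -2.49 in Y+I animals. The groups did not overlap, but they lay close together, with means of -2.32 ± 0.09 and -2.58 ± 0.13 (SD, n = 4 each). The change was -0.26 ± 0.10 (SE), with a 95% interval of -0.49 to -0.03, and did not pass the test (limma adjusted p = 0.249). Rgs4 and Rgs5 were thus the 2 members of 10 whose Y+I values all lay below the vehicle values, a pattern seen in 6.65% of all features; groups without overlap in either direction made up 11.7%. Markers of mural cells, the cells that Rgs5 is known from, had 9 of 9 genes measured, with 0 passing the test and a median change of -0.17. Their summed level, in units of the 75th percentile of the array, was 4.67 to 4.98 in vehicle and 3.91 to 4.68 in Y+I animals. The smooth muscle genes Tagln and Myh11 had the smallest p-values of that list, with changes of -0.28 (limma adjusted p = 0.212) and -0.40 (0.221), and neither passed. Of the 9 changes, 7 were below 0 and 2 above, Notch3 at 0.34 (limma adjusted p = 0.501) and Abcc9 at 0.13 (0.630). The part of mural cells in the Rgs5 values was not tested.

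The other members of the R4 subfamily, small proteins made of little more than the RGS domain, are Rgs2, Rgs3 and Rgs8 in this set. Rgs2, a regulator that prefers Gq and whose gene responds quickly to neuronal activity, had 2 probes. The brighter, at chr13:57890958-57891017, read 1.98, 1.70, 1.88 and 1.76 in vehicle animals and 1.60, 1.92, 1.52 and 1.67 in Y+I animals. The groups overlapped, and the change of -0.15 ± 0.12 (SE) had a 95% interval of -0.42 to 0.11 (limma adjusted p = 0.583). The dimmer Rgs2 probe, at chr13:57891896-57891955, gave the opposite sign, 0.15 ± 0.15 (SE), with an interval of -0.19 to 0.49 (limma adjusted p = 0.690 over all probes). The sign of the Rgs2 change thus depended on the probe.

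Rgs3, which acts on Gi and Gq alpha subunits, read 1.24, 0.98, 0.83 and 0.97 in vehicle animals and 1.24, 1.27, 1.00 and 0.91 in Y+I animals, from a probe at chr5:79708975-79709034. The groups overlapped, and the change was 0.10 ± 0.13 (SE), with a 95% interval of -0.19 to 0.39 (limma adjusted p = 0.755). Rgs8, which speeds the opening and closing of G protein-gated potassium channels, read -2.97, -2.91, -3.03 and -3.13 in vehicle animals and -2.67, -3.19, -2.83 and -2.64 in Y+I animals. Its probe lies at chr13:68766089-68766148. The lowest of all 8 values was that of a Y+I animal, while the 3 highest were also Y+I, and the change was 0.18 ± 0.14 (SE) with an interval of -0.13 to 0.48 (limma adjusted p = 0.583). A change of the size seen for Rgs4 lies outside the intervals of Rgs2, Rgs3, Rgs5 and Rgs8.

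The R7 subfamily, whose members pair with the G protein beta 5 subunit, was represented by Rgs6 and Rgs7. Rgs7, abundant in neurons, read -1.22, -0.92, -0.98 and -1.03 in vehicle animals and -1.13, -1.49, -0.78 and -1.06 in Y+I animals, from a probe at chr13:90749781-90749840. The lowest and the highest value were both those of Y+I animals. The change was -0.07 ± 0.15 (SE), with a 95% interval of -0.42 to 0.27 (limma adjusted p = 0.864).

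Rgs6, which in heart and brain shortens signals through Gi and Go, had a brighter probe at chr6:106900096-106900155. It read -4.29, -4.19, -4.61 and -4.32 in vehicle animals and -4.14, -3.92, -4.93 and -4.42 in Y+I animals. The group means were both -4.35, and the 95% interval of the change was -0.47 to 0.47 (limma adjusted p = 1.00). The dimmer Rgs6 probe, whose position chr6:106936815-106964430 spans 27616 bases, read -5.04, -5.46, -5.14 and -5.17 in vehicle and -5.13, -6.08, -5.99 and -5.85 in Y+I animals. It was well above background on only 2 of 4 Y+I arrays and had been kept through the vehicle group. Its change of -0.56 ± 0.21 (SE) did not pass (limma adjusted p = 0.240 over all probes). Without Y+I animal 1, the highest of its group, the change was -0.77 and passed (adjusted p = 0.0436), and with normexp background correction it was 0.06. The 2 Rgs6 probes thus differed in what they read, and no direction is given for the gene.

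**Figure D3:**
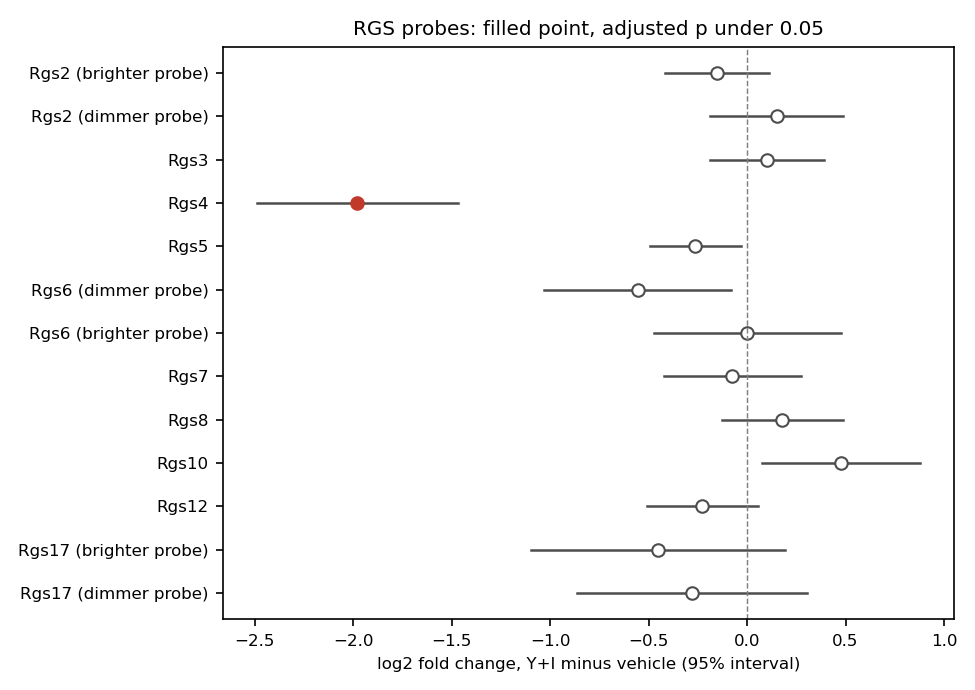
Log2 fold change, Y+I minus vehicle, of the 13 RGS probes (points) with 95% intervals (lines); a filled point passed at an adjusted p under 0.05. The Rgs4 interval, -2.49 to -1.47, is far from 0, while those of the Rgs5, Rgs10 and dimmer Rgs6 probes leave out 0 without passing after adjustment.

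Rgs10 and Rgs12 belong to the R12 subfamily. Rgs10, a small Gi regulator known from microglia and also present in neurons, read 3.99, 3.76, 3.37 and 3.53 in vehicle animals and 3.83, 4.35, 3.98 and 4.40 in Y+I animals, from a probe at chr1:187622500-187622559. The 2 highest values were Y+I and the 2 lowest vehicle, with overlap between. Means were 3.66 ± 0.27 and 4.14 ± 0.28 (SD, n = 4 each), and the change of 0.48 ± 0.18 (SE; 95% interval 0.08 to 0.88) did not pass (limma adjusted p = 0.230). Beside it, 8 of 8 microglial markers were measured and 0 passed, with a median change of -0.19. Their summed level ranged from 12.5 to 14.1 in vehicle and from 11.1 to 15.5 in Y+I animals, with P2ry12 at -0.46 (limma adjusted p = 0.275) and Csf1r at -0.34 (0.288). Of the 8 changes, 5 were below 0 and 3 above, Cx3cr1 at 0.39 (limma adjusted p = 0.521), C1qa at 0.10 (0.772) and Tmem119 at 0.04 (0.961). The part of microglia in the Rgs10 values was not tested.

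Rgs12, the large member with further protein-binding domains that hold growth factor and Ras signalling components, read 1.82, 2.20, 2.26 and 2.16 in vehicle animals and 2.07, 1.77, 1.86 and 1.84 in Y+I animals. Its probe lies at chr14:81363544-81363603. Vehicle animal 1 was as low as the Y+I animals and Y+I animal 1 higher than the rest of its group, so that the groups overlapped. The change was -0.23 ± 0.12 (SE), with a 95% interval of -0.51 to 0.05 (limma adjusted p = 0.426).

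Rgs17, of the RZ subfamily that acts on Gz and other Gi-type subunits and is linked to opioid receptors, read -1.89, -1.99, -1.77 and -1.24 in vehicle animals and -2.30, -2.71, -2.33 and -1.36 in Y+I animals. Its brighter probe at chr1:36542778-36544835 spans 2058 bases. Replicate 4 was the highest animal in both groups, and Y+I animal 4 alone caused the overlap: the other 3 Y+I animals lay below every vehicle animal. Means were -1.72 ± 0.33 and -2.18 ± 0.58 (SD, n = 4 each), and the change of -0.45 ± 0.28 (SE; 95% interval -1.10 to 0.19) did not pass (limma adjusted p = 0.50). A dimmer Rgs17 probe at chr1:36524087-36524146 was well above background on 1 of 4 Y+I arrays, kept through the vehicle group, and gave -0.28 ± 0.26 (SE; limma adjusted p = 0.665 over all probes).

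Over the 10 members, represented by their brightest probes, 6 fitted changes were below 0 and 4 above, with Rgs6 counted among the latter at 0.00. The median was -0.11 against -0.02 over all features. The signs of Rgs2 and Rgs6 depended on the probe, so this tally gives no direction for them. Unadjusted p-values under 0.05 were found for Rgs4, Rgs5 and Rgs10, which is 3 of 10, where 15.6% of all features had one.

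Of 11 further RGS genes, 7 were measured and 0 passed, with a median change of 0.44, and 4 had an unadjusted limma p under 0.05. That median is the value of Rgs16, which was well above background on only 2 of 4 Y+I arrays. Rgs1, Rgs11 and Rgs16 had been kept through the vehicle group, so the median rests in part on dim probes. Rgs14, an R12 member rich in hippocampal area CA2, read 0.98, 1.18, 1.47 and 1.58 in vehicle animals and 2.25, 1.62, 2.20 and 1.92 in Y+I animals. All Y+I animals were above all vehicle animals, a pattern seen upward in 5.04% of features, but the change of 0.70 ± 0.18 (SE) did not pass (limma adjusted p = 0.0982). It passed under 3 of 21 alternatives, and over all 21 its adjusted p ran from 0.0454 to 0.227. Rgs1, an R4 member known from lymphocytes, was well above background on 3 of 4 Y+I arrays and did not pass, at 0.67 ± 0.21 (SE; limma adjusted p = 0.159). Chosen after their values were seen, the R7 members Rgs9 and Rgs11 are the others with an unadjusted p under 0.05. Rgs9, known from striatum, read -1.88, -2.46, -1.09 and -1.84 in vehicle and -2.64, -2.56, -2.57 and -2.55 in Y+I animals (limma adjusted p = 0.161). The Rgs9 groups did not overlap, and the Y+I animals were close to each other while the vehicle animals were spread widely. Rgs11, known from retina, gave 1.03 ± 0.34 (SE), with 3 of 4 Y+I arrays well above background and overlapping groups (limma adjusted p = 0.171). By subfamily, the measured changes ran from -1.98 to 0.67 in R4 (7 genes), from -0.77 to 1.03 in R7 (4 genes), from -0.23 to 0.70 in R12 (3 genes) and from -0.45 to 0.08 in RZ (3 genes). Rgs4 was the 1 gene called among these 17. The highest changes in R4 and R7 were those of the dim probes of Rgs1 and Rgs11.

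The genes with which RGS proteins work were taken from 7 lists by role, the further RGS genes being the first of them. Of 70 genes listed, 62 were measured: 2 rose, 0 fell and 60 did not pass, with a median of 0.01. The share called higher over all features was 0.739%. Rasd1, a Ras-like G protein activator that is induced by glucocorticoids, rose from 0.52, 0.98, 0.68 and 0.61 in vehicle animals to 1.54, 1.66, 1.60 and 1.52 in Y+I animals. Its groups stood clear of each other, and the change was 0.88 ± 0.12 (SE; limma adjusted p = 0.0095). Rasd1 passed with each single animal left out, and without Y+I animals 2 and 3 the change was 0.83 with an adjusted p of 0.0615.

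Kcnj6, which encodes the GIRK2 subunit of the potassium channels that G protein beta and gamma subunits open, read -0.98, -1.02, -1.24 and -1.07 in vehicle animals and -0.40, -0.62, -0.24 and -0.56 in Y+I animals. Every Y+I animal was above every vehicle animal, and Kcnj6 rose by 0.62 ± 0.11 (SE; limma adjusted p = 0.0300). The call was lost without any of the vehicle animals 1 to 4 (limma adjusted p = 0.0679, 0.0802, 0.0865 and 0.10) and without Y+I animal 1 (0.0706) or 3 (0.050, just above the threshold). The related subunit gene Kcnj9, GIRK3, had a change of -0.50 (limma adjusted p = 0.171). In the list of 8 phospholipase C beta and GIRK genes, Kcnj6 was the 1 that passed, and the median was -0.15.

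No gene passed in the other lists by role. The 6 RGS partner proteins, which apart from Ppp1r9b anchor R7 proteins at membranes or form their dimers, had a median of -0.04. Gpr158, an orphan receptor that binds Rgs7, was at 0.17 (limma adjusted p = 0.480), and its relative Gpr179 was well above background on 0 of 4 Y+I arrays (adjusted p = 0.210). Of the alpha subunits, the substrates of RGS proteins, 13 of 15 were measured with a median of 0.02. Gna14 and Gnaq, both of the Gq class, were each at 0.35 (limma adjusted p = 0.259 and 0.345). Of the beta and gamma subunits 13 of 15 were measured with a median of 0.04. Gng13 was at -0.70 ± 0.19 (SE; limma adjusted p = 0.105) and Gng11 at -0.44 ± 0.14 (SE; adjusted p = 0.154). Among 7 receptor kinases and arrestins, which switch off receptors rather than G proteins, the median was 0.03, with Grk6 at -0.48 (limma adjusted p = 0.123) and Arrb2 at 0.20 (adjusted p = 0.447). Among the 8 other modulators, which include Rasd1, the median was 0.00, and Gpsm1, a binding partner of resting Gi alpha, was at -0.45 (limma adjusted p = 0.101).

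**Figure D4:**
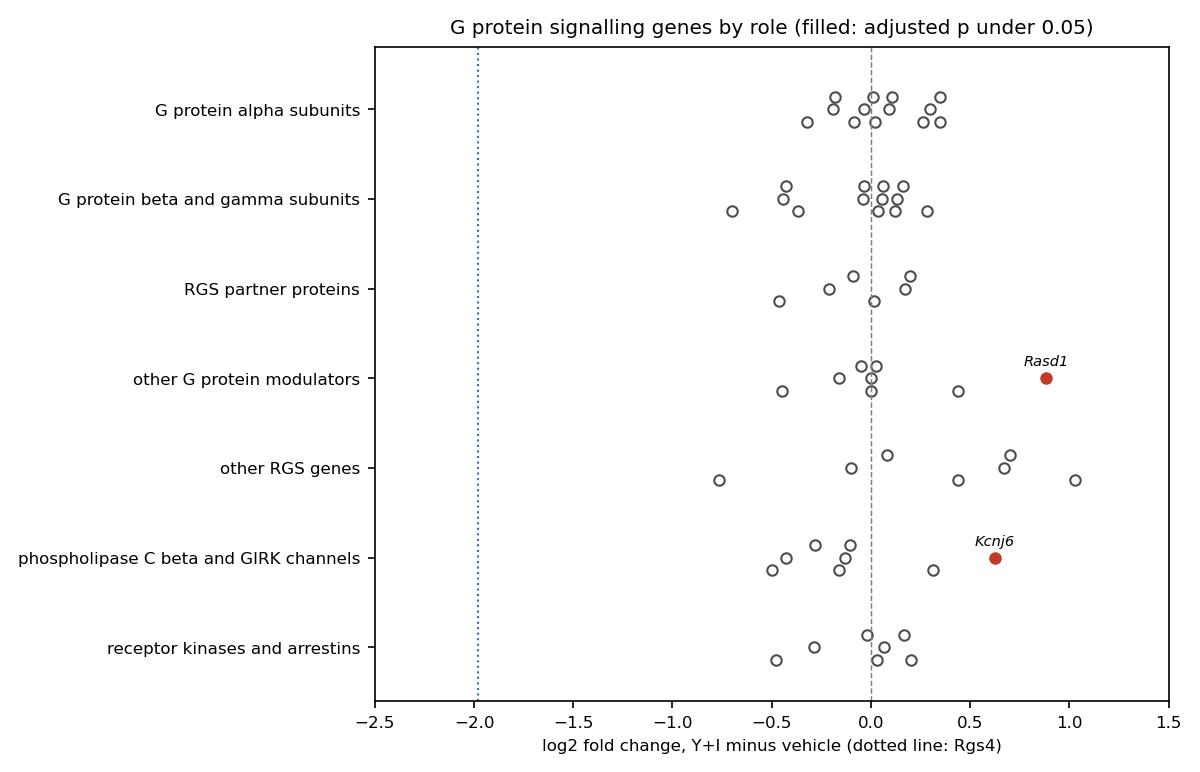
Log2 fold change, Y+I minus vehicle, of 62 measured G protein signalling genes in 7 lists by role, one point for each gene; filled points passed at an adjusted p under 0.05 and the dotted line is Rgs4 at -1.98. Rasd1 at 0.88 and Kcnj6 at 0.62 are the filled points, and no gene lies near the dotted line.

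The features whose signal was most like that of Rgs4 across the 8 arrays were Sptbn5, a spectrin beta chain, Grb7, a growth factor receptor adaptor, and Stac2, a regulator of calcium channels. Pearson's r was 0.988 for all 3, and after subtraction of each group's mean it was 0.88 for Sptbn5, 0.93 for Grb7 and 0.96 for Stac2. These are descriptions of the most similar among all named features, and the arrays share slide rows and scaling. Stac2, well above background on all arrays, read -0.42, -1.05, -1.28 and -0.82 in vehicle animals and -2.05, -2.17, -2.24 and -1.74 in Y+I animals. It had the same order of vehicle animals as Rgs4, with animals 1 and 4 high and animals 2 and 3 low. Stac2 fell by 1.16 ± 0.19 (SE) on the log2 scale (limma adjusted p = 0.0222). Grb7 and Sptbn5 had been kept through the vehicle group, where they were high, so their falls are description only. Grb7, well above background on 2 of 4 Y+I arrays, was lower by 2.02 ± 0.30 (SE, limma adjusted p = 0.0135). Sptbn5, well above background on 0 of 4 Y+I arrays, had group means of -5.16 and -6.87, which is 3.28-fold lower (limma adjusted p = 0.00829). Raising each Y+I value of Sptbn5 to the weakest signal still well above background on its array left the mean at -6.87. The fold of this dim probe is therefore uncertain and is not a lower bound.

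Of the marker lists, those for striatum, thalamus, meninges and neocortical layers held the 5 genes that passed, and those for cell types held 0. Over all features 2.33% were called and 1.6% were called lower, so 0 calls in a list this short is near that share. Genes of the marker lists that go against the named ones were added after their values were seen. Of 8 markers of hippocampal excitatory neurons, 7 were well above background on every array, and none was below it on all arrays. None of these 8 passed, 7 changes were above 0, and the median was 0.53, with Neurod6 at 0.59 (limma adjusted p = 0.0964) and Wfs1 at 1.19 (adjusted p = 0.112). Their summed level was 23.1 to 38.9 in vehicle and 45.1 to 50.8 in Y+I animals, without overlap. Fibcd1, the brightest probe of that list, made up 61.4% to 79.0% of the sum, and its own groups overlapped, at 14.5 to 30.8 and 30.4 to 37.7. Without Fibcd1 the sums overlapped too, at 8.19 to 10.6 in vehicle and 10.1 to 19.1 in Y+I animals. Of 8 inhibitory neuron markers 0 passed, 6 changes were below 0 and 2 above, the median was -0.26, and the summed level was 105.2 to 132 against 88.7 to 114. Cck, the brightest probe of that list, made up 45.4% to 57.6% of the sum. Without Cck the sums did not overlap, at 52.5 to 56.1 in vehicle and 44.8 to 48.4 in Y+I animals. In 4 of the 8 genes all Y+I values lay below all vehicle values, a pattern seen in 6.65% of all features. Within the inhibitory list, Vip was at -0.51 (limma adjusted p = 0.0742) and Gad1 at -0.29 (adjusted p = 0.139), while Gad2 was at 0.38 (adjusted p = 0.353) and Npy at 0.26 (adjusted p = 0.359).

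All 8 striatal markers had fitted changes below 0, the smallest of them 0.00 to 2 decimals, with a median of -0.65 and a summed level of 4.17 to 4.44 in vehicle and 2.45 to 3.27 in Y+I animals. Rgs9 is itself a member of the striatal list, so the list and the Rgs9 values are not independent. Drd2, the dopamine D2 receptor, fell by 0.60 ± 0.11 (SE) on the log2 scale (limma adjusted p = 0.0278), while Penk was at -0.66 (adjusted p = 0.0619) and did not pass. Of 5 measured thalamic markers the median was -0.64, and the summed level was 3.06 to 4.32 against 1.88 to 2.25. Slc17a6, a vesicular glutamate transporter, fell by 1.17 ± 0.21 (SE) on the log2 scale (limma adjusted p = 0.0291), and Calb2 was at -0.83 (adjusted p = 0.0571). The thalamic list went both ways: 3 changes were below 0 and 2 above. Lhx9 was at 0.94 ± 0.26 (SE; limma adjusted p = 0.117), with every Y+I animal above every vehicle animal, and Tcf7l2 was at 0.09 (adjusted p = 0.820). With 1 animal left out, Drd2 passed only without Y+I animal 2 or 4 and Slc17a6 only without vehicle animal 3 or Y+I animal 4, with limma adjusted p up to 0.0847 and 0.0975 in the other fits of this kind. Neither passed with same-numbered animals as a block (limma adjusted p = 0.102 for Drd2 and 0.0630 for Slc17a6). Without both Y+I animals 2 and 3 the adjusted p was 0.112 for Drd2 and 0.153 for Slc17a6. Of 6 meningeal markers 2 fell, Slc6a13 by 1.02 (adjusted p = 0.0105) and Col1a1 by 1.03 (adjusted p = 0.0135), and the summed level was 3.37 to 3.95 against 2.18 to 2.80. Slc6a13 was at -0.49 with normexp background correction, where it passed (limma adjusted p = 0.0289), and leaving out both Y+I animals 2 and 3 ended its call (adjusted p = 0.0634). Col1a1 passed under all 21 alternatives and was at -0.59 as the mean of its probes. Without the brightest gene of each list, the sums for striatum, thalamus and meninges did not overlap either. For striatum they were 2.37 to 3.30 in vehicle against 1.43 to 1.69 in Y+I animals. For thalamus they were 1.85 to 2.58 against 1.36 to 1.72, and for meninges 1.34 to 1.73 against 0.861 to 1.12. Of single features, 6.65% were lower without overlap. The share of marker sums of this kind that would not overlap was not worked out.

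Of the neocortical markers 2 of 4 were measured, Rorb at -0.14 (limma adjusted p = 0.663) and Scnn1a at 0.13 (adjusted p = 0.828). Because Rgs4 is known to be abundant in neocortex, a list of neocortical layer and subicular genes was added after the values were seen. Of its 15 genes 13 were measured, with a median of -0.30 and a summed level of 6.38 to 8.10 in vehicle and 5.82 to 6.89 in Y+I animals, with overlap. Cplx3, a gene of deep cortical layers, fell by 0.91 ± 0.17 (SE) on the log2 scale (limma adjusted p = 0.0351) and passed in 2 of 8 fits with 1 animal left out. With normexp background correction Cplx3 was at -0.48 and did not pass (limma adjusted p = 0.0801). Fezf2 was at -0.61 (adjusted p = 0.117). Of the 13 changes, 10 were below 0 and 3 above, Fn1 at 0.30 (adjusted p = 0.240) and Nts at 0.40 (adjusted p = 0.569) among them. Lists for endothelial cells (8 measured, median -0.18), astrocytes (6, 0.02), oligodendrocytes (6, 0.12) and choroid plexus (3, -0.24) had 0 genes called. In the choroid plexus list Folr1 was at 0.88 (limma adjusted p = 0.308), Aqp1 at -0.24 (0.595) and Ttr at -0.33 (0.928). Ttr differed widely between animals, from -2.80 to 2.14 in vehicle and from -2.58 to 0.43 in Y+I animals. The part of any of these tissues or cell types in the Rgs4 values, or in those of Rgs9 and Rgs14, was not tested.

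**Figure D5:**
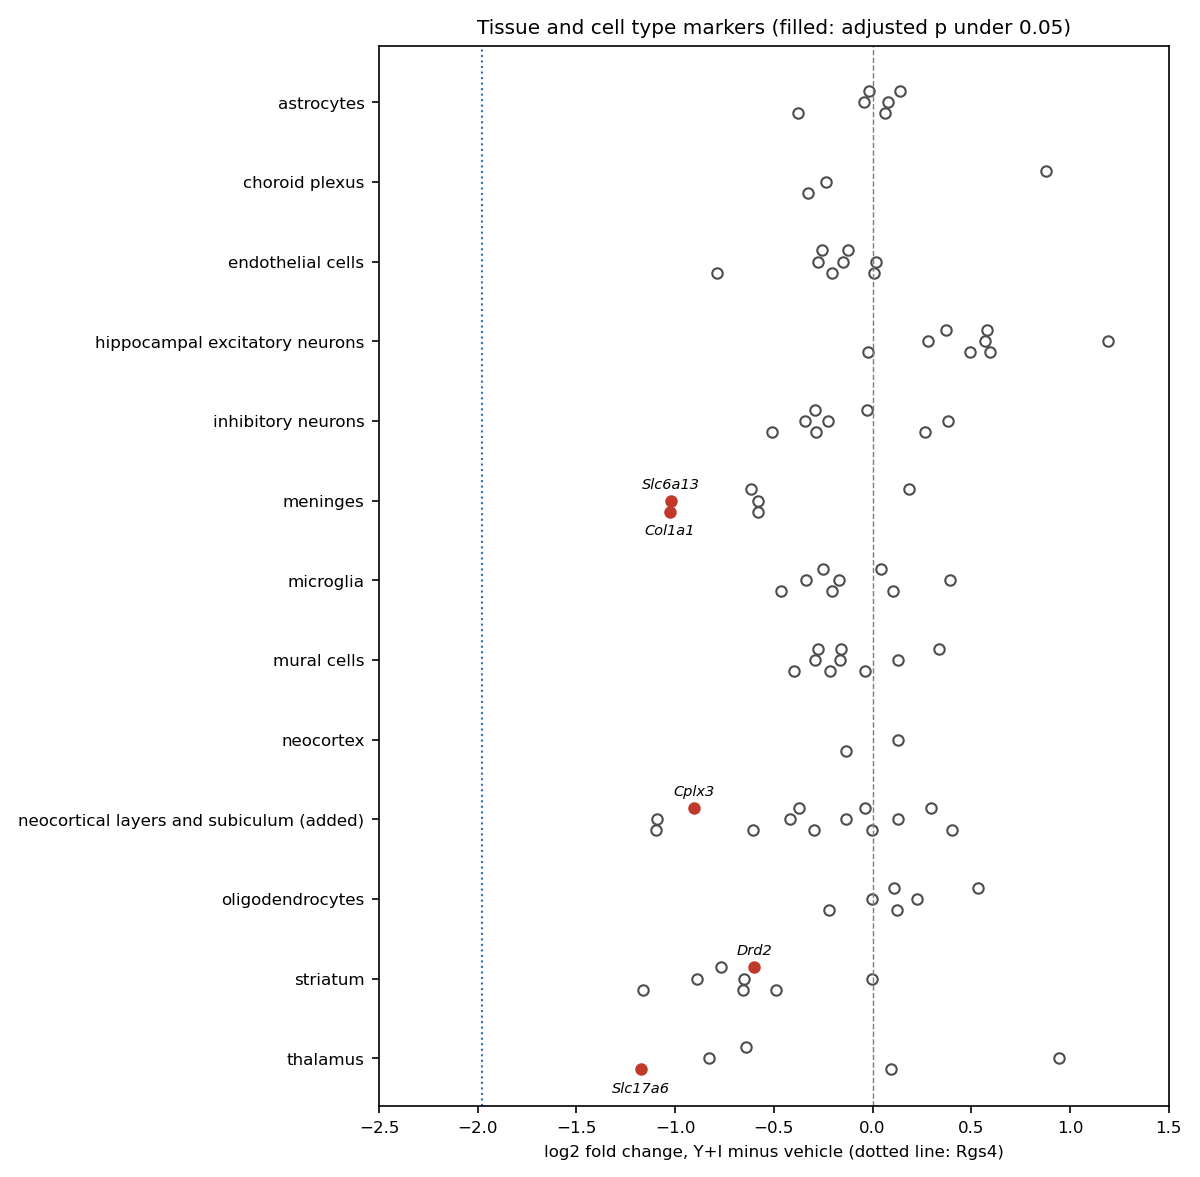
Log2 fold change, Y+I minus vehicle, of markers of cell types and neighbouring tissues, one point for each gene; filled points passed at an adjusted p under 0.05 and the dotted line is Rgs4 at -1.98. Filled points are Slc6a13, Col1a1, Cplx3, Drd2 and Slc17a6, all below 0, and no marker reaches the line of Rgs4.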

How the data were processed

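Hippocampal RNA of 8 rats, 4 for each group and separate animals per the labels, was measured on 1-colour Agilent arrays with Cy3 as the dye. Per the file headers, Agilent Feature Extraction 10.5.1.1 gave for each spot a background-subtracted processed intensity, and the authors deposited these intensity files unnormalised between arrays. The authors also deposited a table of log2 values of the same arrays, with scale, centring and direction not given in the sources used here. It had r of at least 0.998 with the values used here, column medians of -3.51 to -3.35, and lay 0.59 to 0.67 above them by array medians; it served as an alternative.

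Values were log2 processed signal minus each array's 75th percentile over noncontrol spots. Outlier spots were dropped, and the remaining spots of a probe averaged. Probes were kept if well above background on at least 50% of spots on all 4 arrays of a group, with at least 3 values for each group: 21370 of 30367. Near background the processed signal is a surrogate, so folds of dim probes are uncertain. Symbols came from RefSeq (GRCr8; 18004 probes matched by accession, 2320 by symbol, 626 by synonym, 1999 kept the file's name, 7418 had none); the brightest kept probe stood for a symbol, giving 18803 features. Probe positions are on rn4, per the file headers; the part of the transcript was not annotated here. The contrast was fitted in R 4.3.3 with limma 3.58.1 (lmFit, eBayes), with 2-sided p-values.

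The members and lists were chosen with earlier results of these data known, and the list of neocortical layers and subiculum after the values were seen. Named genes were all members and probes, the changed genes and the 2 with the smallest p of each list (endothelial, astrocyte, oligodendrocyte and choroid plexus lists by count only), and the 3 named features most like Rgs4, without provisional names. Other marker genes, those of the choroid plexus list among them, and Rgs9, Rgs11 and Rgs16 were named after their values were seen. Animal numbers were not used to pair samples in the main fit. On simulated data for this comparison with 18803 features, recovery of changed features was 35.8% for a size of 1.5-fold, 65.7% for 2-fold and 95.5% for 4-fold, and 11 of 142 calls were false. Alternatives covered scaling, background correction, filter, probe summary, variance model, block and animals left out. Figures used matplotlib 3.10.9.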

Additional observations from a re-analysis of the deposited data

How the results depend on the processing

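The count of members called was 1, Rgs4, under all 21 alternatives. Features changed numbered 439 as reported, 713 with cyclic loess, 3887 without the background filter, 170 without Y+I animals 2 and 3, and 120 (without vehicle animal 4) to 348 (without Y+I animal 3) with 1 animal left out: 201, 193, 194 and 120 without vehicle animals 1 to 4, and 261, 285, 348 and 279 without Y+I animals 1 to 4. The share of calls that were higher was 31.7% as reported, 66.4% with normexp, 86.5% without the filter and 43.3% with the filter on all 8 arrays; normexp moved the median of all features from -0.02 to 0.09. Pathway genes changed numbered 2 as reported, 6 with cyclic loess, 6 with normexp, 4 each without the filter, with trend and robust variance and with array weights, 1 without Y+I animals 2 and 3, and 1 to 2 with 1 animal left out. The deviations of same-numbered animals from their group means had r of 0.05, -0.11, -0.04 and 0.04. With so few animals, these r do not settle whether same-numbered arrays share more than a number. With the replicate block, features changed were 144 and pathway genes 1, and Rgs4 passed (limma adjusted p = 0.0243). Signs turned for Rgs6 (-0.28 as the mean of its probes; -0.14 to 0.19 with 1 animal left out), Rgs7 (-0.19 to 0.051 with 1 animal left out), the dimmer probes of Rgs17 (0.24) and Rgs6 (0.064) with normexp, Gng11 (0.052) and Gpr179 (0.17) with normexp, Rorb (0.011 with cyclic loess, 0.18 with normexp, 0.059 without Y+I animals 2 and 3) and Scnn1a (-0.073 to 0.32 with 1 animal left out). None of these passed as reported, and the cause was not tested. The dimmer probes of Rgs6 and Rgs17 were well above background on 2 and 1 of 4 Y+I arrays. Sums of marker lists without their brightest gene were added after seeing the data.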

Other observations

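The within-group deviations of the other members had Pearson's r with those of Rgs4 from -0.66 (Rgs12) to 0.56 (Rgs10) over the 8 arrays, a description over few animals that share a slide. Rgs2 had r of 0.40, Rgs3 0.51 and Rgs5 -0.44.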
